A study of Rattus norvegicus with 6 samples.

Results

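Toll-like receptors are membrane proteins that recognise microbial molecules and products of damaged cells. Most of them recruit the adaptor Myd88, which assembles the kinases Irak4 and Irak1 and then the ubiquitin ligase Traf6, and this leads to activation of the transcription factor NF-κB and of MAP kinases. In the heart they are known from sepsis, ischaemia and pressure overload, where the receptors of both the myocytes and the resident macrophages have been studied. The 10 genes described here are the receptors Tlr2, Tlr3, Tlr4, Tlr5 and Tlr6, the co-receptor Cd14, and the signalling proteins Myd88, Irak1, Irak4 and Traf6. They were chosen by name among the 16575 genes that could be named on the array. Where a gene had several probes, the brightest on average over the 6 arrays stands for it, so that the level chose the probe and the difference between the groups did not. All 10 genes had at least 1 probe.

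The cells were neonatal rat ventricular cardiomyocytes (NRVCs), a primary culture from the ventricles of 8 to 10 Sprague-Dawley rats aged 1 to 2 days, with no genetic modification, enriched for myocytes by preplating. The control group consisted of 3 cultures without C3a. The C3a group consisted of 3 cultures that received recombinant C3a at 0.5 µg/ml for 12 h, C3a being the fragment released from complement C3. The sample records name a serum-free medium, whereas the methods name serum starvation in 1% fetal bovine serum before the stimulation. Neither says whether the replicates came from separate preparations, so the p-values measure the spread between these samples, which may be technical.

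RNA of each culture was hybridised to its own 1-colour Agilent array, and all 6 arrays lay on 1 slide with the groups on opposite sides, so slide side and treatment cannot be told apart. Levels are given as log2 signal over the array's 75th percentile, and a probe counts as detected where the scanner software called it well above background. The local background around the spots had a median of 47 intensity units on control replicate 1 and of 23 or 24 elsewhere, and 38.6% of the probes of that array were detected, against 53.7% to 57.3%. Of the cardiomyocyte markers, 11 of 11 with a probe were detected on all 6 arrays, among them Myh6 and Tnnt2. Of the macrophage markers, 5 of 14 were, among them Lyz2 and Cd68, and 4 of 14 (C1qa, C1qc, Cd163 and Mrc1) were detected on no array. Fewer cells of a type and less RNA per cell cannot be told apart in these data.

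Of the 10 genes, 4 were detected on all 6 arrays: Tlr2, Myd88, Irak1 and Traf6. Over all 45572 probes with a value, 38.4% were detected on all 6 arrays. That share counts every probe, also dimmer and unnamed ones, whereas each of the 10 genes stands by its brightest probe. By brightest probe, 10390 of the 16575 named genes were detected on all 3 arrays of either group, and 5 of the 10 genes were. Tlr6 was detected on every array but control replicate 1. Tlr3 and Cd14 were each detected on 2 of 3 arrays of each group, Tlr4 on 1 of 3 arrays of each group, and Tlr5 and Irak4 on none. Among the 5 receptors, control replicate 1 had only Tlr2 detected, while control replicate 3 and C3a replicate 1 had Tlr2, Tlr3, Tlr4 and Tlr6. On control replicate 1 the lowest relative log2 signal of any detected probe was -2.28, against -5.09 to -4.18 on the other arrays. The probes of Tlr3, Tlr4, Tlr5, Tlr6, Cd14 and Irak4 all lay below -2.28 on that array. Probes differ in how strongly they bind their target, so signal served to choose which probe or gene to describe and is not compared between genes.

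**Figure D1:**
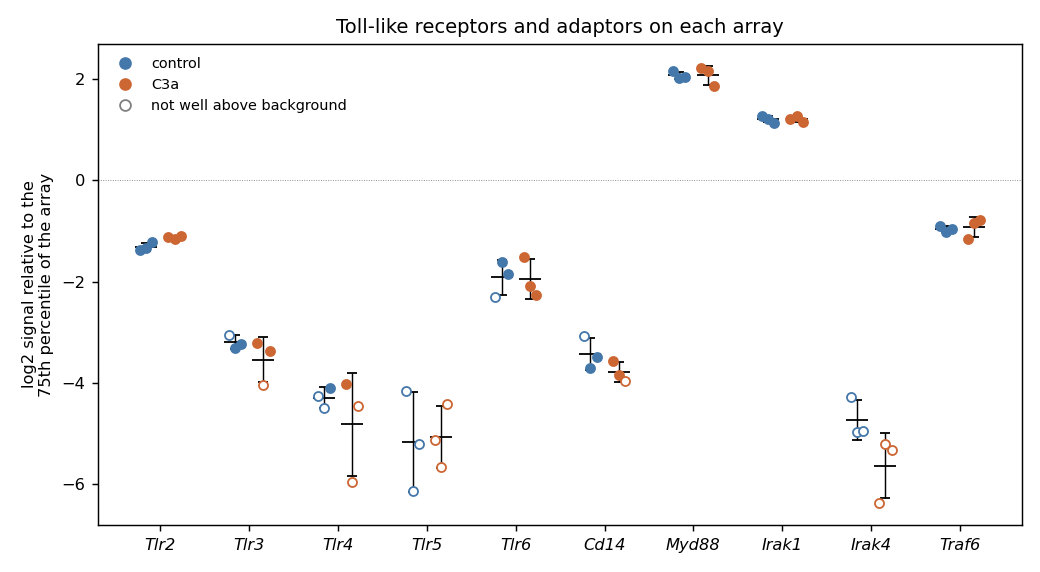
Level of each gene on each array as log2 signal over the array's 75th percentile (y axis) for the 10 genes (x axis). Each point is an array, filled where the probe was well above background and open where it was not, blue for control and orange for C3a. Horizontal bars are group means and vertical bars the SD (n = 3). Only for Tlr2, Myd88, Irak1 and Traf6 are all 6 points filled, and the Tlr2 values of the C3a arrays, from -1.16 to -1.10, lie above those of the controls, from -1.38 to -1.23.

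C3a was compared with control over the 23438 probes detected on all 3 arrays of either group, with limma, a linear model whose variances borrow from all probes. Of these, 17519 met the condition in the controls and 23425 in the C3a group, so nearly all of the dimmer probes entered through the C3a arrays. No probe passed an adjusted p under 0.05 (0% called), while 5.82% had an unadjusted p under 0.05 in limma, of which 783 (3.34%) were higher with C3a and 581 (2.48%) lower. Of the 10 genes, 5 were among the probes compared (Tlr2, Tlr6, Myd88, Irak1 and Traf6), and 0 of these 5 passed either threshold. The balance of higher and lower probes depended on the scaling, with 565 against 725 if only probes detected on every array set the percentile, 41 against 2558 without normalization between arrays, and 9 against 1516 with scaling to spike-in probes. The median log2 difference of all compared probes was 0.048 with the 75th percentile, -0.28 without normalization and -0.42 with spike-in scaling. For the 5 genes compared, and for Tlr9, Hsp90aa1, Ccl5 and Itgam, the difference is therefore also given relative to this median.

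Tlr2, the receptor for bacterial lipoproteins, works as a pair with Tlr1 or Tlr6. Its relative log2 signal was -1.38, -1.33 and -1.23 on the control arrays and -1.11, -1.16 and -1.10 on the C3a arrays, or 105, 146 and 115 intensity units without C3a and 106, 129 and 96.6 with C3a before scaling. On the relative scale all 3 C3a arrays lay above all 3 controls, while the unscaled intensities of the groups overlapped. The mean was -1.31 ± 0.078 (SD, n = 3) in control cultures and -1.12 ± 0.031 (SD, n = 3) with C3a. The log2 difference was 0.19 (standard error 0.091, 95% confidence interval -0.030 to 0.40), or 1.14-fold with an interval of 0.980 to 1.32. Adjusted p from limma was 0.743, and an exact permutation test (two-sided, 3 arrays per group) gave p = 0.1, the smallest this design allows. Complete separation in this direction was seen for 8.04% of all compared probes, and in 1 of the 5 genes compared here.

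The difference of Tlr2 was 0.26, 0.17 and 0.13 in the 3 pairs of equal replicate number. Any pairing is positive where the groups separate completely, so this adds nothing to that separation. Without normalization between arrays the difference was -0.14 and with spike-in scaling -0.28, while relative to the median of all probes it was 0.14 with the 75th percentile. Scalings that shift a whole array leave that centred value as it is by construction, and the settings that can change it gave 0.17 (quantile normalization) and 0.10 (normexp background correction). Unadjusted p from limma was 0.0809, and 0.0320 after quantile normalization. The summed level of the 14 macrophage markers ranged from 8.88 to 11.9 times the 75th percentile in the controls and from 9.68 to 10.4 with C3a. Of the 11 cardiomyocyte markers, 9 were above 0, with a median log2 difference of 0.16, and of the 5 endothelial markers compared 4 were, with a median of 0.14. Of the 8 fibroblast markers 2 were above 0 (median -0.053), and of the 5 smooth muscle and pericyte markers 3 were (median 0.030). Over all compared probes the median was 0.048, and 38.4% of those detected on all 6 arrays were below 0. The part of these cell types in the Tlr2 signal was not tested.

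**Figure D2:**
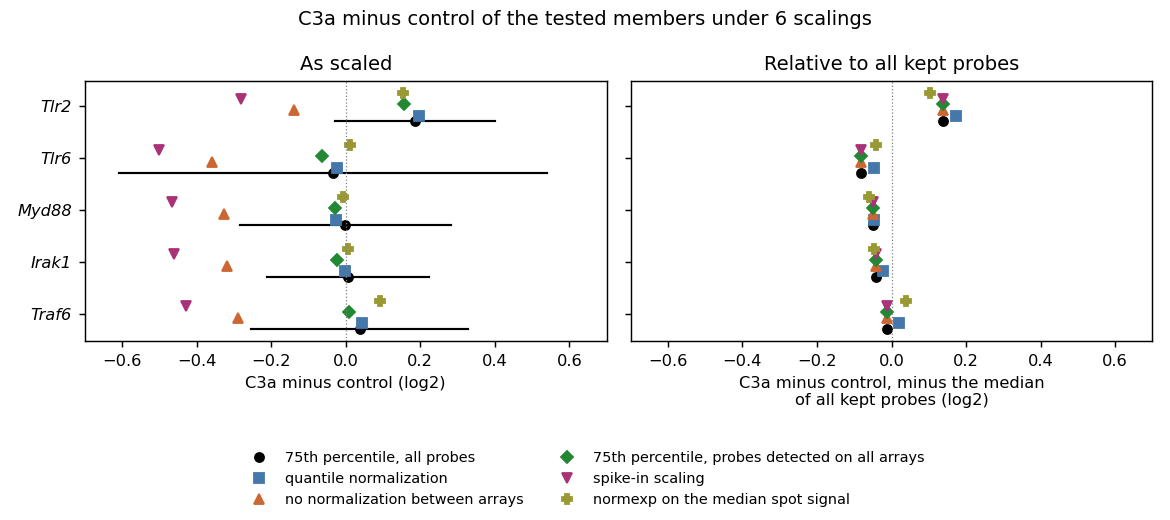
C3a minus control on the log2 scale (x axis) for the 5 genes compared, as scaled (left) and after subtracting the median of all kept probes (right). Each symbol is 1 scaling or background correction, and the black line is the 95% confidence interval with the 75th percentile scaling (n = 3 per group). On the left all 5 genes lie below 0 without normalization and with spike-in scaling, whereas on the right, where scalings by a constant per array coincide by construction, the symbols of Tlr2 lie between 0.10 and 0.17.

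The promoter of Tlr2 is shown because the NF-κB consensus was found in it and in none of the other windows searched for these genes. The consensus, 10 letters long, was searched on both strands in the 250 bases before the transcription start of RefSeq genes (GRCr8), and the table held 9 of the 10 genes. Tlr2 had 3 matches in 2 stretches, the first of which holds a pair of overlapping matches over 11 bases and begins 206 bases before the start, while the second begins 42 bases before it. The window is chr2:171504558-171504807 on the minus strand, and the capitals mark the matches.
Tlr2: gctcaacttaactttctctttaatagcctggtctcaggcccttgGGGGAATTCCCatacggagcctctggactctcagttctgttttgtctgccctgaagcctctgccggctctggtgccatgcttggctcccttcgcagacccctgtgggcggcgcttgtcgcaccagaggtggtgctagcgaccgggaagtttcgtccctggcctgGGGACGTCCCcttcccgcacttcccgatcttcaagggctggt
Of the 33469 windows of this length in the table, 6.33% held at least 1 match. A match describes the letters and is not evidence of binding.

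Tlr6 forms the pair with Tlr2 that senses diacylated lipoproteins. Its relative log2 signal was -2.30, -1.60 and -1.85 on the control arrays and -1.51, -2.08 and -2.26 with C3a, and the lowest value was that of control replicate 1, where the probe was not detected. The groups overlapped in part, with C3a replicate 1 above all controls and control replicate 1 below all C3a arrays. The log2 difference was -0.034 (standard error 0.24, 95% confidence interval -0.61 to 0.54, adjusted p = 0.972 from limma), or 0.656- to 1.46-fold. Changes in either direction within this interval remain compatible with the data. Relative to the median of all probes the difference was -0.082. It was 0.12 both without control replicate 2 and without C3a replicate 3, and -0.22 without control replicate 1.

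A second Tlr6 probe, dimmer than the first, had -2.54, -3.13 and -2.99 in the controls and -2.84, -3.49 and -3.64 with C3a. It was lower with C3a in all 3 pairs of equal number, with a log2 difference of -0.43 (standard error 0.24) and an adjusted p of 0.743 from limma. With the replicate block, which takes the replicate numbers as pairs, its unadjusted p from limma fell from 0.116 to 0.00844 and its adjusted p was 0.239. Its highest value came from control replicate 1, where it was not detected. The dimmest Tlr6 probe, detected on 2 of 3 arrays of each group, differed by -0.074 and was not tested. The 3 probes of Tlr6 therefore gave differences from -0.43 to -0.034.

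**Figure D3:**
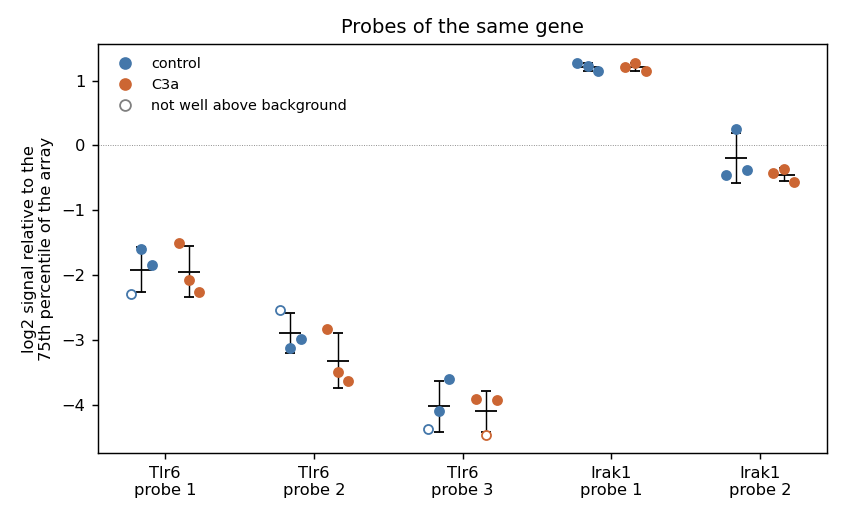
Level of each probe of Tlr6 and Irak1 on each array as log2 signal over the array's 75th percentile (y axis), with probes numbered from the highest mean signal (x axis). Points are arrays, open where not well above background, and bars are the mean and SD (n = 3). The second Tlr6 probe runs from -3.13 to -2.54 in the controls and from -3.64 to -2.84 with C3a, and the second Irak1 probe has 1 control array at 0.26 above the other arrays.

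Tlr3 binds double-stranded RNA in endosomes and signals through Ticam1 in place of Myd88. Its relative log2 signal was -3.05, -3.31 and -3.24 in the controls and -3.21, -4.04 and -3.37 with C3a. The groups overlapped, and the lowest value, on C3a replicate 2, was not detected above background. The difference of -0.34 became -0.094 without C3a replicate 2. With a filter that asks for detection on 2 of 3 arrays of a group, adjusted p from limma was 0.761.

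Cd14 passes lipopolysaccharide to Tlr4 and its partner Ly96, and it is a classical monocyte and macrophage gene. Its relative log2 signal was -3.08, -3.70 and -3.50 in the controls and -3.57, -3.84 and -3.96 with C3a. Each C3a value was below the control of the same number, but the groups overlapped, and the probe was not detected on control replicate 1 or C3a replicate 3. The difference was -0.37 and became -0.19 without control replicate 1, and adjusted p from limma was 0.761 with the filter on 2 of 3 arrays. Ly96 itself, detected on all arrays but control replicate 1, differed by -0.19 (unadjusted p = 0.248 from limma).

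Tlr4, the lipopolysaccharide receptor, had a relative log2 signal of -4.27, -4.50 and -4.11 in the controls and -4.03, -5.97 and -4.47 with C3a. Detection was limited to control replicate 3 and C3a replicate 1, which gave the highest values of their groups. The difference of -0.53 rested on C3a replicate 2 and was 0.045 without it.

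Tlr5, the flagellin receptor, had a relative log2 signal of -4.17, -6.14 and -5.21 in the controls and -5.13, -5.66 and -4.43 with C3a. Irak4, the first kinase to join Myd88, had -4.28, -4.97 and -4.95 in the controls and -6.38, -5.21 and -5.33 with C3a. Both genes were undetected on all 6 arrays, so these values lie within background and no fold is given. Of the 18057 probes detected on no array, 91.2% had a lower mean with C3a. Their median log2 difference was -0.45 and became 0.32 without control replicate 1.

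Myd88, the adaptor of all Toll-like receptors described here but Tlr3, had a relative log2 signal of 2.15, 2.03 and 2.05 in the controls and 2.21, 2.15 and 1.86 with C3a, or 754 to 1501 intensity units. The C3a arrays held both the highest and the lowest value. The control mean was 2.08 ± 0.067 (SD, n = 3) and the C3a mean 2.08 ± 0.19 (SD, n = 3). The log2 difference was -0.0010 with a 95% confidence interval of -0.28 to 0.28, which is 0.821- to 1.22-fold (adjusted p = 0.998 from limma). Relative to the median of all probes it was -0.049, and leaving out C3a replicate 3 gave 0.11.

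Irak1, the kinase that passes the signal from Irak4 to Traf6, had 2 probes. The brighter had a relative log2 signal of 1.26, 1.22 and 1.14 in the controls and 1.21, 1.28 and 1.15 with C3a, and the groups overlapped. The log2 difference was 0.0057 (95% confidence interval -0.21 to 0.22, adjusted p = 0.987 from limma), or 0.863- to 1.17-fold, and -0.043 relative to the median of all probes. The dimmer Irak1 probe had -0.46, 0.26 and -0.38 in the controls and -0.43, -0.37 and -0.56 with C3a. Control replicate 2 stood above the other 5 arrays, and the log2 difference was -0.26 (adjusted p = 0.745 from limma). Averaged over both probes, the difference of Irak1 was -0.13.

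Traf6, the ubiquitin ligase downstream of Irak1, had a relative log2 signal of -0.90, -1.03 and -0.96 in the controls and -1.15, -0.84 and -0.79 with C3a. The control values lay between the lowest and the higher C3a values. The control mean was -0.96 ± 0.062 (SD, n = 3) and the C3a mean -0.93 ± 0.20 (SD, n = 3). The log2 difference was 0.037 (95% confidence interval -0.25 to 0.33, adjusted p = 0.933 from limma). Relative to the median of all probes it was -0.011. Leaving out 1 array at a time gave 0.15 without C3a replicate 1 and -0.032 without C3a replicate 3.

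The rest of the pathway was examined through 9 lists with 94 further genes, of which 82 had a probe and 56 were compared. At an unadjusted p under 0.05, 3 of 56 were higher with C3a and 0 lower, where 5.33% of all genes compared by their brightest probe passed. These were Tlr9, Hsp90aa1 and Ccl5, and 0 of 56 passed the adjusted threshold in limma. Of the 56 genes, 46 were detected on all 6 arrays, Hsp90aa1 among them, while Tlr9 and Ccl5 entered the comparison through the C3a arrays, where they were higher, so that the count of higher against lower genes draws on the filter. With the replicate block, 5 of 56 had an unadjusted p under 0.05, beside 13.6% of all probes. The genes added were Tlr12 and Zc3h12a, which also entered the comparison through the C3a arrays, where their means were higher. Zc3h12a, undetected on control replicate 1, differed by 0.35 (adjusted p = 0.283 from limma with the block). The median log2 difference of the 56 genes was 0.039, beside 0.048 over all probes compared.

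Among the other Toll-like receptors, 5 of the 7 with a probe (Tlr1, Tlr7, Tlr8, Tlr10 and Tlr11) were detected on no array. The remaining genes were Tlr9, which senses unmethylated CpG DNA in endosomes, and Tlr12. Tlr9 had a relative log2 signal of -2.98, -3.19 and -2.77 in the controls and -2.44, -2.66 and -2.17 with C3a. All 3 C3a arrays lay above all 3 controls, and the probe was detected on every array but control replicate 1, so that it entered the comparison through the C3a arrays. The log2 difference was 0.56 (standard error 0.16, 95% confidence interval 0.17 to 0.94), with an unadjusted p of 0.0107 and an adjusted p of 0.743 from limma, or 0.221 with the replicate block. The two-sided exact permutation test gave p = 0.1, the smallest possible. The difference ranged from 0.43 to 0.68 when each array was left out, and was 0.36 with array weights. With normexp background correction it was 0.24, without normalization 0.23 and with spike-in scaling 0.091, and in these 3 settings the unadjusted p from limma no longer passed 0.05 (0.165 with normexp). Relative to the median of all probes it was 0.51, or 0.19 with normexp. Tlr12, also undetected on control replicate 1, differed by 0.24 (adjusted p = 0.756 from limma, 0.345 with the replicate block, where its unadjusted p was 0.0404).

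Tlr9 is best known from immune cells, so the macrophage markers are given beside it. Of the 14 markers, 8 were compared, with log2 differences from -0.16 to 0.63 and 6 of 8 above 0. Among all compared probes, 38.4% of those detected on all 6 arrays and 35.8% of the others were below 0. Itgam, the integrin chain of myeloid cells, was the 1 of 8 with an unadjusted p under 0.05 in limma. Of all genes compared by their brightest probe, 5.33% passed. Itgam was -2.63, -2.99 and -2.58 in the controls and -2.39, -1.92 and -2.01 with C3a, a log2 difference of 0.63 (adjusted p = 0.743 from limma). The difference of Itgam was 0.34 with normexp and 0.58 relative to the median of all probes. It was 0.30 without normalization and 0.16 with spike-in scaling, where the unadjusted p from limma was 0.236 and 0.677. Its probe was not detected on control replicate 1 and entered the comparison through the C3a arrays, where it was higher. Lyz2 and Tyrobp, which were detected on all 6 arrays, differed by -0.088 and 0.060. The part of macrophages in the Tlr9 signal was not tested.

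Of the 14 downstream kinases and ubiquitin enzymes with a probe, 12 were detected on all 6 arrays, and their log2 differences ran from -0.21 to 0.18. Among them were Ube2n, a conjugating enzyme that works with Traf6, and its partner Ube2v1. Ube2n was 3.45, 3.22 and 3.43 in the controls and 3.60, 3.51 and 3.52 with C3a, so that all C3a arrays lay above all controls (log2 difference 0.18, adjusted p = 0.743 from limma). Ube2v1 differed by 0.084, with overlapping groups. Of the other adaptors, Ticam2, which links Tlr4 to Ticam1, was detected on all 6 arrays and differed by 0.17 (adjusted p = 0.743 from limma), while Sarm1 and Pik3ap1 were detected on no array.

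Of the 10 inhibitors of the pathway with a probe, 9 were compared, with a median log2 difference of 0.017. Tollip, which holds Irak1 in check, was 2.80, 2.87 and 2.75 in the controls and 2.69, 2.70 and 2.52 with C3a. It was the 1 of the 56 genes with all C3a arrays below all controls (4.46% of all compared probes), with a log2 difference of -0.17 (adjusted p = 0.743 from limma). Otud5, a deubiquitinase, differed by 0.084.

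The genes that Toll-like receptors are known to induce through NF-κB fell into detected and undetected genes. Of 15 with a probe, 8 were detected on all 6 arrays (Sod2, Ccl2, Icam1, Ccl20, Csf3, Vcam1, Lcn2 and Cxcl1) and 7 on none (Tnf, Il1b, Il1a, Il6, Cxcl2, Ptgs2 and Nos2). The 8 detected genes had log2 differences from -0.13 to 0.14, and 0 of 8 passed an unadjusted p under 0.05 in limma. Sod2, a mitochondrial superoxide dismutase, differed by 0.013 and the chemokine Ccl2 by -0.022.

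Of the interferon arm, 8 of 11 genes were compared, with a median log2 difference of 0.066. The chemokine Ccl5 was -2.80, -2.83 and -2.51 in the controls and -2.34, -2.47 and -2.27 with C3a, a log2 difference of 0.35 (adjusted p = 0.743 from limma). All C3a arrays lay above all controls, and as with Tlr9 the probe was not detected on control replicate 1. Its unadjusted p passed 0.05 in 8 of 18 alternatives, among them the methods' t-test. From limma it was 0.0630 with normexp, 0.0927 with a variance trend and 0.0924 with array weights. Relative to the median of all probes the difference was 0.30. Irf3 and Irf7, the transcription factors of interferon induction, differed by -0.068 and 0.095.

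**Figure D4:**
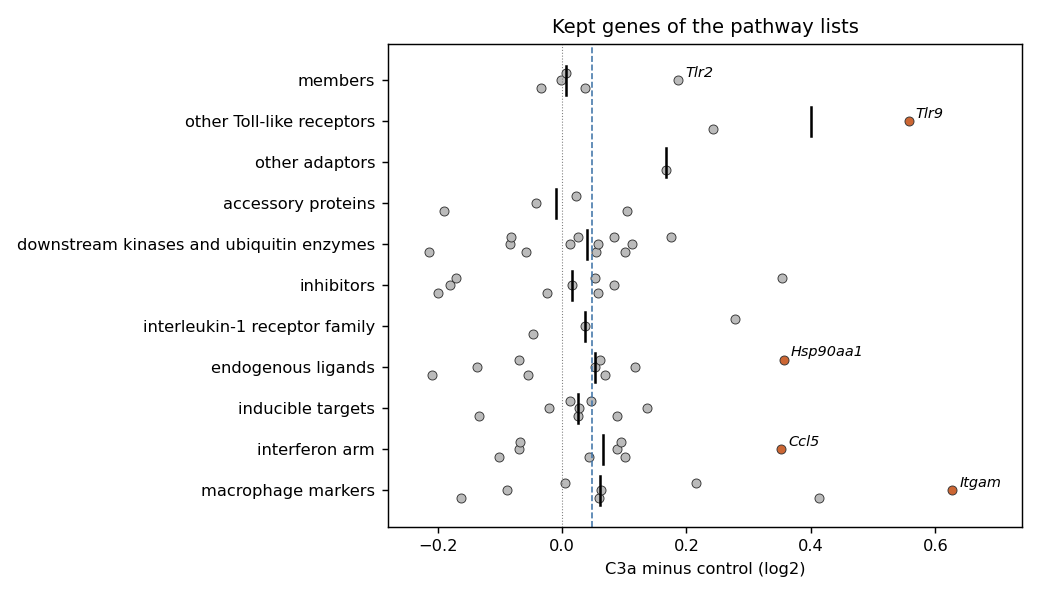
C3a minus control on the log2 scale (x axis) for the genes compared in each list (y axis). Each point is a gene by its brightest probe, orange at an unadjusted p under 0.05, the vertical bars are list medians, and the dashed blue line is the median of all kept probes, 0.048. Tlr2 stands at 0.19, Tlr9 at 0.56, Hsp90aa1 at 0.36, Ccl5 at 0.35 and the macrophage marker Itgam at 0.63.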

How the data were processed

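RNA of 3 control and 3 C3a-treated cultures was measured on 1-colour Agilent arrays. The authors deposited scanner output, in which Agilent Feature Extraction 11.5.1.1 had made background-corrected intensity values, and a log2 table from GeneSpring scaled to the 75th percentile. From the deposited intensity, control spots (4259 of 62976 per array) and outlier-flagged spots were left out, spots of a probe were averaged, and the log2 value minus the 75th percentile of the array was used. The result differed from the authors' log2 table by a median of at most 0.0062. Accessions named 21092 of 45572 probes (46.3%) through RefSeq (GRCr8).

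The comparison took the probes that the scanner software called detected on each array of either group, and was made with limma 3.58.1 (R 4.3.3) and Benjamini-Hochberg adjustment over 23438 probes. On simulated data, log2 changes of 0.5 were called for 5 of 50 probes and changes of 1 for 33 of 50, so that small differences would mostly be missed. Equal replicate numbers deviated together, with correlations of 0.28, 0.32 and 0.31 between deviations from the group means. For this reason the numbers were taken as pairs in the replicate block. Unequal numbers gave -0.26 to -0.093, but centring on the group means makes these negative on average once equal numbers are positive. The pairing comes from the values, since the sample records give only the number.

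Named with values were all 10 genes and the genes of the other lists at an unadjusted p under 0.05. Where detected, the 2 of highest signal in each pathway list and among the macrophage and fibroblast markers were named too. Tlr12, Ticam2 and Tollip were among the 2 of highest signal in their lists. Ly96, Zc3h12a and the genes listed as detected or undetected were named after their values were seen. The genes and lists were chosen with earlier results of these data known. Of the listed genes, 15 had no matched probe, among them Tlr13, Tirap and Ticam1. Array number limits the precision. Alternatives were another scaling, background correction, filter, variance model, array weights, the authors' table, the block, the methods' t-test and leaving out each array.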

Additional observations from a re-analysis of the deposited data

How the results depend on the processing

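Over the 20 alternatives for Tlr2, adjusted p ran from 0.426 to 0.997, and the direction reversed in 2. Alternatives that change only the filter, the variance model or the test keep its difference of 0.19 by construction. The replicate block and the mean over its probes do so too, and these do not speak to the direction. Without normalization between arrays the log2 difference was -0.14 for Tlr2, -0.32 for Irak1 and -0.29 for Traf6, and with spike-in scaling it was -0.28, -0.46 and -0.43. Irak1 was -0.00067 with quantile normalization, -0.023 with the percentile over detected probes and -0.13 as the mean over its probes. Tlr6 was 0.012 with normexp and Myd88 0.045 with array weights. With spike-in scaling Hsp90aa1 was -0.11 and Ccl5 -0.11. Probes passing the adjusted threshold numbered 4 without normalization and 11 with spike-in scaling, and those at an unadjusted p under 0.05 numbered 2599 without normalization. Of the 5 genes compared, 1 passed an unadjusted p under 0.05 with quantile normalization, beside 1318 of all 23438 probes. With the methods' t-test 1 passed, beside 1108 of 23438 probes, and in both cases this was Tlr2.

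Leaving out each array gave 0.15 to 0.23 for Tlr2, -0.26 to 0.12 for Tlr6, -0.069 to 0.11 for Myd88, -0.028 to 0.036 for Irak1 and -0.032 to 0.15 for Traf6. Probes at an unadjusted p under 0.05 ranged from 709 without C3a replicate 3 to 2139 without control replicate 3, with 895 without C3a replicate 1, and 0 passed the adjusted threshold each time. With the replicate block, 3198 probes (13.6%) had an unadjusted p under 0.05, and 0 passed the adjusted threshold. At an unadjusted p under 0.05, Tlr12, Zc3h12a and the second Tlr6 probe were added, and the 5 genes compared stayed above it. The cause of these changes was not tested. Background limits Tlr3, Tlr4, Tlr5, Cd14 and Irak4, whose probes were not compared.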

Other observations

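Of 11 endogenous ligands of Toll-like receptors, 9 were compared, with a median log2 difference of 0.053. Hsp90aa1, an inducible chaperone, was 6.27, 6.03 and 6.24 in the controls and 6.69, 6.53 and 6.40 with C3a, a log2 difference of 0.36 (standard error 0.12, adjusted p = 0.743 from limma). All C3a arrays lay above all controls, and relative to the median of all probes the difference was 0.31. The mitochondrial chaperone Hspd1 separated the groups in the same way and differed by 0.12. S100a8 and S100a9, ligands of Tlr4 made by neutrophils, were detected on no array.

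Of the interleukin-1 receptor family, which shares Myd88, Irak4 and Irak1 with the Toll-like receptors, 3 of 4 genes with a probe were compared. The decoy receptor Il1r2 was detected on all 6 arrays and differed by 0.036, and Il1rap, the shared signalling chain, differed by -0.047. Of 7 accessory proteins with a probe, 4 were compared, with a median log2 difference of -0.0090, among them Cd36, a fatty acid transporter that also serves Tlr2, at 0.023 and the chaperone Cnpy3 at 0.10. Among the fibroblast markers Lum differed by -0.54 (adjusted p = 0.743 from limma), with overlapping groups. Its probe was not detected on control replicate 1. The difference of Lum was -0.14 with normexp and -0.86 without normalization, and it stayed below 0 in all 18 alternatives. Col1a1 and Col1a2, which were detected on all 6 arrays, differed by 0.024 and 0.011. They were the 2 of 8 fibroblast markers above 0.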
